A study of Mus musculus with 4 samples.

Results

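The genes described here are the protein-coding heat shock proteins and chaperonins of the mouse, selected by a rule on gene symbols. The rule was set with earlier results of these data known. They comprise the HSP90, HSP70 and HSP110 families with 2 of their partners, the small heat shock proteins, the J-domain proteins of classes A, B and C, the mitochondrial chaperonin and the cytosolic chaperonin CCT. The rule left out Hspa5 and Dnajb9, which belong to the unfolded protein response of the endoplasmic reticulum (ER), and Hspg2, which is a matrix proteoglycan. It selected 77 of the 26561 genes in the count table. The 4 other annotated genes that match the rule (Dnajb8, Dnajb13, Dnajc5g and Hspa14) have no row there. Messenger RNA was sequenced from cultured wild-type MC38 cells, a line from a mouse colon adenocarcinoma. The unirradiated group held 2 libraries. The irradiated group held 2 libraries from cells that received 30 Gy of X-rays in 1 fraction, harvested 60 h later. The labels give no harvest time for the unirradiated cells, so culture age and density cannot be told apart from the dose. Whether replicate libraries were grown in separate dishes is also left unsaid, and the p-values rest only on how far apart those libraries lie, which may be a technical spread.

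Molecular chaperones bind unfolded proteins and keep them from aggregating while they fold. HSP70 proteins take up exposed hydrophobic stretches in cycles driven by ATP, with J-domain proteins delivering the substrate and HSP110 proteins exchanging the nucleotide, and HSP90 completes the maturation of kinases, steroid receptors and other clients. Chaperonins are closed barrels: the mitochondrial one is built from HSP60 (Hspd1) with its lid HSP10 (Hspe1), and CCT, built from distinct subunits, folds actin and tubulin in the cytosol. Heat shock factor 1 (HSF1) raises the stress-inducible members of these families when misfolded protein accumulates, through repeats of the letters GAA and TTC in their promoters.

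Total counts per library lay between 26059171 and 29881492. Genes with counts above 0 numbered 19413 and 19531 in the unirradiated and 22713 and 22663 in the irradiated libraries. The labels call MC38 epithelial, but several defining epithelial markers were nearly absent: Epcam had 0 or 1 counts, Krt18 at most 3, Krt20 at most 4 and Vil1 at most 5 in any library. Krt19 had between 31 and 53 counts, and Krt8 had 6 and 3 counts without and 30 and 20 with irradiation (log2 fold change 2.44, adjusted p = 0.00232 by the edgeR test). Without irradiated replicate 1 the edgeR adjusted p of Krt8 was 0.112, and without unirradiated replicate 2 it was 0.0589. Cdh1 had 998 and 1009 counts without and 2173 and 1798 with irradiation. The summed level of the 7 epithelial markers was 38.5 and 36.5 CPM (counts per 1000000 counts) without and 75.8 and 70.1 CPM with irradiation, most of it Cdh1. Of 5 tested mesenchymal markers 3 rose, 1 fell and Cdh2 did not pass. The one that fell was Vim, a mesenchymal filament gene, with 117105 and 125501 counts without and 105936 and 95096 with irradiation (-0.26, edgeR adjusted p = 1.38e-48). The leukocyte markers Cd3e and Adgre1 had at most 1 and 2 counts in any library, and Ptprc had between 6 and 24. Dcn, a mesenchymal matrix gene, had the largest rise of the mesenchymal list, from 46 and 58 counts to 1073 and 965. Of the endothelial markers, Pecam1 (63 and 47 counts against 145 and 145) and Tek (0 and 4 against 25 and 23) also rose. Cdh5 (8 and 5 counts against 12 and 3) and Kdr (0 and 0 against 3 and 3) were too low to be tested. The part of any such shift in the chaperone results was not tested.

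Most expressed chaperone genes differed between the groups, and more were lower than higher after irradiation. Of the 77 genes, 68 had enough counts to be tested. At an adjusted p of 0.05, 35 of them fell and 13 rose, while 20 stayed short of the threshold. Over all 15298 genes tested, 30.3% fell and 30.4% rose, 60.7% in all, so a call in either direction was common and the lower share stood above that background while the higher share stood below it. The median log2 fold change was -0.18 over the tested chaperone genes (-0.28 without unirradiated replicate 1) and 0.012 over all genes tested. In 40 of them both irradiated libraries lay below both unirradiated ones, in 15 they lay above, and in 13 the groups overlapped, against 38.7% of all genes tested with the irradiated libraries below and 39.7% with them above. Fewer cells of a type and less RNA per cell cannot be told apart in such bulk libraries.

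Changes were small for most members. The median absolute log2 fold change was 0.36 in the tested chaperone genes and 0.39 in all genes tested. Only 3 of the 68 reached an absolute value of 1 (Dnajc21, Dnajc28 and Dnajc6, the last of which did not pass the test), or 4.41%, against 18.2% of all genes tested. The level of a gene went with the direction. The Spearman rho of log2 fold change with mean CPM was -0.21 over the tested members and -0.26 over all genes tested. Of the 29 chaperone genes with a mean above 100 CPM, 20 fell and 6 rose, and their median log2 fold change was -0.36. Among all 2485 genes above that level 49.9% fell and 32.4% rose. Of the 39 tested members at or below it, 15 fell, 7 rose and 17 did not pass, with a median of -0.050. Over all genes tested, at any level, 30.3% fell and 30.4% rose.

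**Figure D1:**
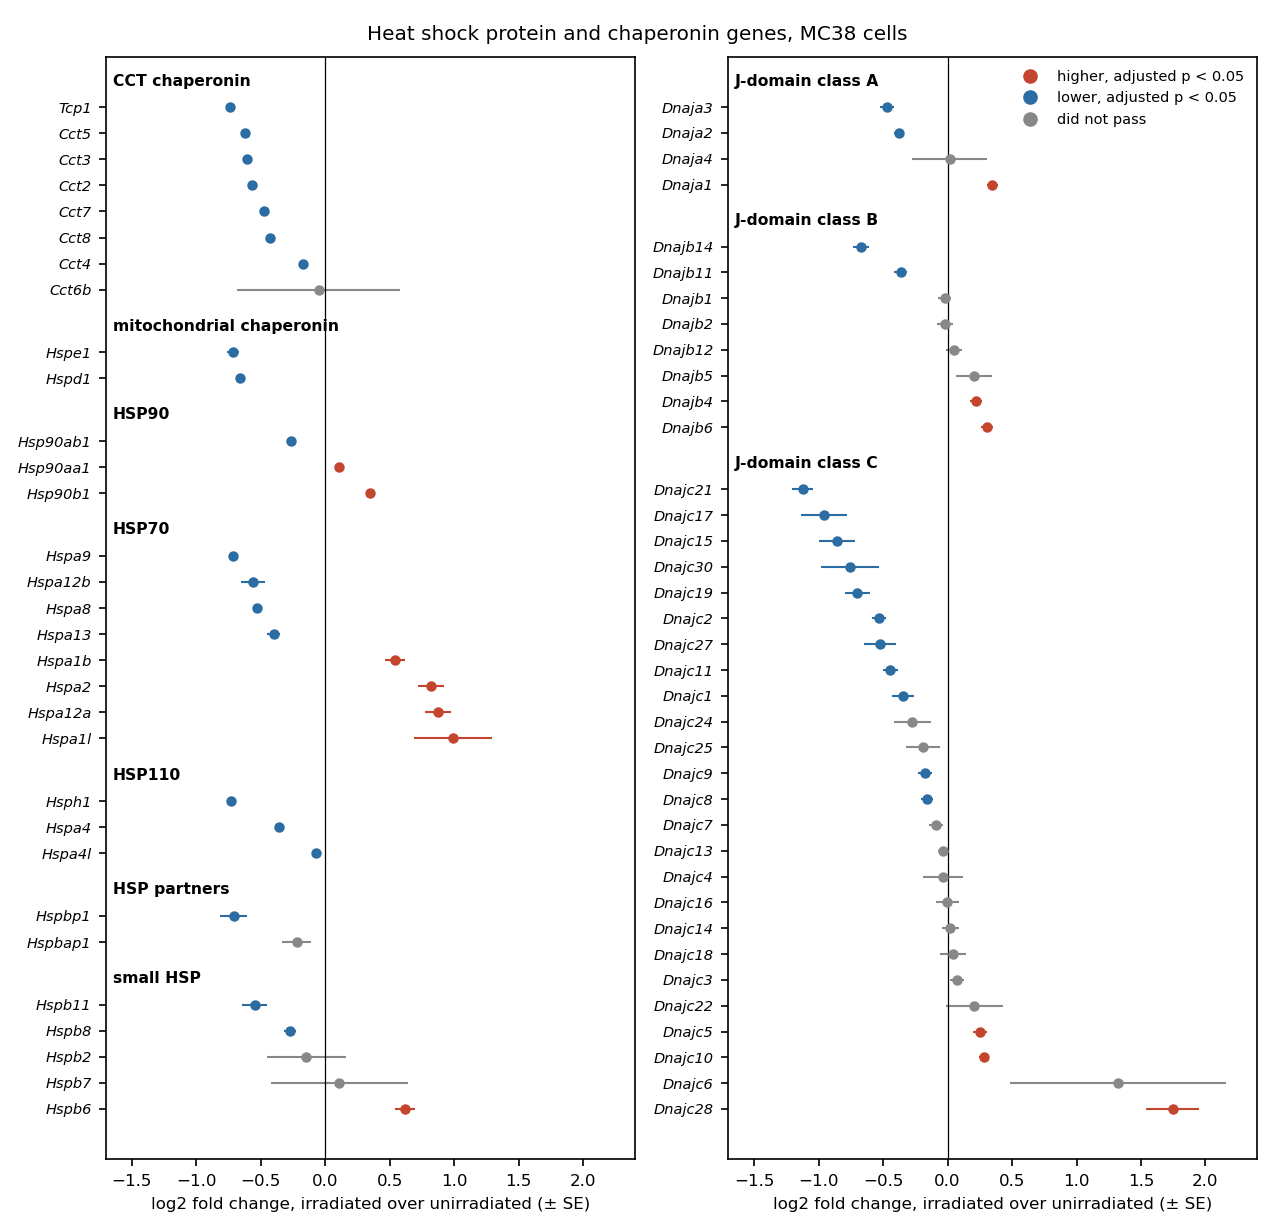
Log2 fold change of each of the 68 tested chaperone genes, irradiated over unirradiated, with bars of 1 standard error (SE), grouped by family. Blue points were lower, red points higher and grey points did not pass at an adjusted p of 0.05. All 7 abundant CCT subunits and both mitochondrial chaperonin genes lie left of 0, while HSP70 genes lie on both sides.

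Expression per length, in TPM (transcripts per 1000000 transcripts), shows where the bulk of the chaperone message lies. The 77 genes together made up 19414 and 19786 TPM in the unirradiated libraries and 16546 and 16134 TPM in the irradiated ones. The 3 most abundant genes, Hsp90ab1, Hspa8 and Hsp90aa1, held 53.9% of that sum. HSP90 genes summed to 7991 and 8087 TPM without irradiation and to 7573 and 7369 TPM with it. HSP70 genes went from 3832 and 3924 TPM to 2822 and 2781 TPM, and CCT subunits from 3042 and 3109 TPM to 2283 and 2182 TPM. The mitochondrial chaperonin stood at 1362 and 1395 TPM and then at 886 and 906 TPM. J-domain proteins, the most numerous family with 41 members, summed to 2027 and 2096 TPM without and 2002 and 1923 TPM with irradiation. The summed level of each family except J-domain class B was lower in both irradiated libraries than in both unirradiated ones. In class B the groups overlapped. The gap was narrow in class C, with 1108 and 1152 TPM without and 1099 and 1068 TPM with irradiation.

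**Figure D2:**
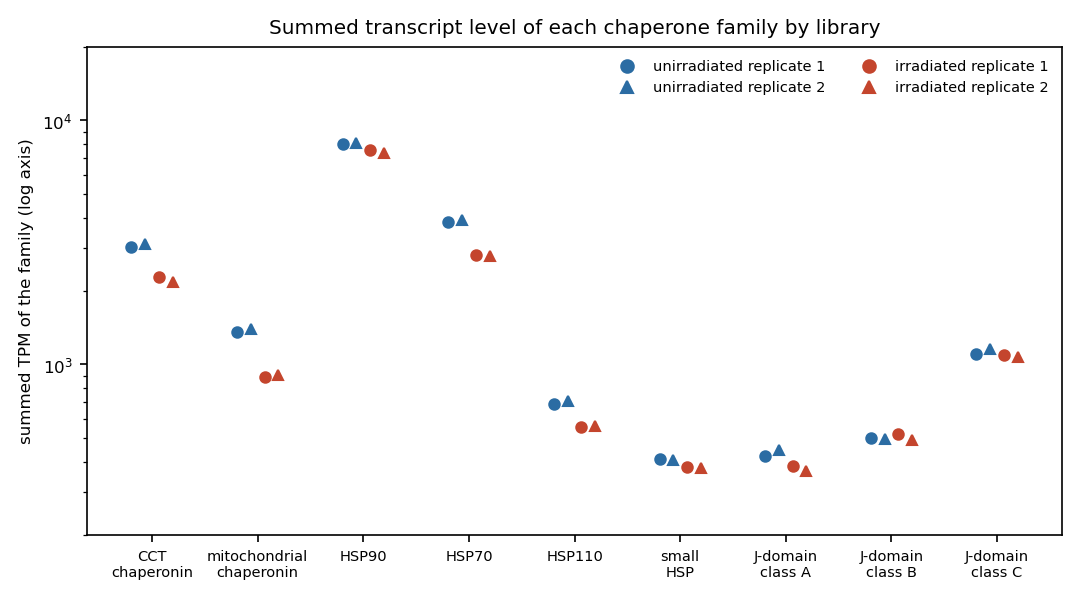
Summed level of each chaperone family in TPM (log scale) in each of the 4 libraries, computed from the deposited counts and annotated exon lengths. Points are libraries, and the widest gap between the groups in proportion is seen in the mitochondrial chaperonin, from 1362 and 1395 to 886 and 906 TPM.

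The promoters of some members hold the letters of the heat shock element, and these are shown because they are the part of the sequence through which HSF1 acts. RefSeq windows (GRCm38.p6) from 250 bases before to 50 after a start were on hand for 62 of the 77 genes. Those of Hsp90aa1, Hsp90ab1, Hspa8, Hspa9 and Cct4 were among the 15 without one. A pair of adjoining inverted units, GAANNTTC or TTCNNGAA, each its own reverse complement, occurred in 18 of the 62 genes (29.0%) and in 17.0% of all 27025 genes of the table. A run of 3 adjoining units, which is either pair with the next inverted unit after 2 more free bases and so contains the pair, occurred in 4 of the 62 (6.45%) and in 0.662% of all genes. The 4 genes are Hspd1, Hspe1, Hsph1 and Dnajb6. A gene with several starts has several windows and more room for a match. Below are the 250 bases before a start of Hspe1, Hsph1, Dnajb6 and Hspa1b, 5′ to 3′ on the strand of the gene, with the matched heat shock letters in capitals.
Hspe1: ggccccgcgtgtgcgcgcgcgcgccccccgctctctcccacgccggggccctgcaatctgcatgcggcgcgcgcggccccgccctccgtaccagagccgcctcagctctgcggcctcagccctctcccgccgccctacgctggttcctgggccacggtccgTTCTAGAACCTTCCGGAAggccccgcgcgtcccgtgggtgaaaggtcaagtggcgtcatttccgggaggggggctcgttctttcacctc
Hsph1: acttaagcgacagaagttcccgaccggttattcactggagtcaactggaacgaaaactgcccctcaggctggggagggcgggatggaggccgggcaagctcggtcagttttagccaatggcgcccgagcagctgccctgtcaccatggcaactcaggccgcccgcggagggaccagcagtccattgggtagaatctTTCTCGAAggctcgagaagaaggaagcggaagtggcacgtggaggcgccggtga
Dnajb6: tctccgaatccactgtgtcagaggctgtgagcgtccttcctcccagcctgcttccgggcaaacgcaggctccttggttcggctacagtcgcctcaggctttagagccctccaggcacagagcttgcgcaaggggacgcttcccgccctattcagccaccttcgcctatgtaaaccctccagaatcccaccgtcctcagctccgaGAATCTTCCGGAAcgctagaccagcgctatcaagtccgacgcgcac
Hspa1b: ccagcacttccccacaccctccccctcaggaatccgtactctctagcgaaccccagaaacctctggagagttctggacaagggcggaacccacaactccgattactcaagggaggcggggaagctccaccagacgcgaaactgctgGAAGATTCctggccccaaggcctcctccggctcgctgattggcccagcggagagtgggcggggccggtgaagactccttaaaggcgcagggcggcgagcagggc

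Hspe1 lies at chr1:55087898-55088147 (plus strand), Hsph1 at chr5:149636316-149636565 (minus), Dnajb6 at chr5:29735648-29735897 (plus) and Hspa1b at chr17:34959239-34959488 (minus). Hspd1 and Hspe1 are divergent neighbours that share a promoter: their windows have 285 bases in common, and the same 18 bases read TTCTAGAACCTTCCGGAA on the Hspe1 strand and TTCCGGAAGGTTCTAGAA on that of Hspd1 (chr1:55088059-55088076). The run begins 89 bases before the Hspe1 start and 144 bases before an Hspd1 start. The window of another Hspd1 start (chr1:55088194-55088493) holds 0 pairs. In Hsph1 the 3 units, TTCTGGAAAGTTC, lie just after the start at chr5:149636288-149636300. A separate pair begins 54 bases before the start printed here and 33 bases before another start. In Dnajb6 the run GAATCTTCCGGAA begins 46 bases before the start printed here and 127 bases before another start. Hspa1b has 1 pair, GAAGATTC, 104 bases before its start. Genes with these letters did not move one way: of the 14 tested members with a pair 6 rose, 7 fell and 1 did not pass, and of the 41 tested without one 5 rose, 20 fell and 16 did not pass. Of the 4 with 3 units, Hspd1, Hspe1 and Hsph1 fell and Dnajb6 rose. Over all genes tested, with or without such letters, 30.4% rose and 30.3% fell. A match of letters is a description of the window and does not show binding.

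CCT is a double ring of distinct subunits, and all of its abundant subunits fell. Of its 9 members, 8 were tested, 7 fell and none rose, with a median log2 fold change of -0.52. At an unadjusted edgeR p under 0.05, and in DESeq2 with its adjusted p, 0 of these genes were higher. Among all genes above 100 CPM, 49.9% fell and 32.4% rose. Tcp1, the first subunit (chr17:12915701-12925067), had 444 and 456 CPM in the unirradiated and 273 and 266 CPM in the irradiated libraries. It was 1.67-fold lower (log2 fold change -0.74, SE 0.032, adjusted p = 7.31e-112). Cct5 went from 483 and 501 CPM to 327 and 311 CPM (-0.63, adjusted p = 2.18e-86), and Cct3 from 453 and 459.9 CPM to 299 in both irradiated libraries (-0.61, adjusted p = 8.44e-79). The irradiated libraries lay below the unirradiated ones in each of these genes without overlap. Cct2 had 465 and 479 CPM before and 324 and 312 CPM after irradiation (-0.57, adjusted p = 4.84e-71). For Cct7 the values were 472 and 476 CPM against 336 and 345 CPM (-0.48), and for Cct8, the most abundant subunit over all 4 libraries, 554 and 566 CPM against 419.9 and 415 CPM (-0.42). Cct4 moved least among the abundant subunits, from 384 and 397 CPM to 349.6 and 344 CPM (-0.17, SE 0.032, adjusted p = 2.72e-07). Subunits of 1 complex thus differed in the size of their fall, from 1.13-fold in Cct4 to 1.67-fold in Tcp1.

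The remaining CCT genes are special cases. Cct6a, the ubiquitous zeta subunit, is not among the 77 because the annotation used does not class it as protein-coding. It went from 485 and 481 CPM to 301 and 306 CPM (-0.67, SE 0.032, adjusted p = 4.08e-97), so that 8 of the 8 abundant subunits were lower. Its testis-enriched paralog Cct6b had only 13, 22, 11 and 22 counts in the 4 libraries (adjusted p = 0.953), and Cct8l1 had 3 counts in 1 irradiated library and 0 in each of the others. On the scale per length, the most abundant of the 8 subunits stood 2.61 and 2.67 times above the least abundant in the unirradiated libraries and 2.89 and 2.86 times in the irradiated ones.

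**Figure D3:**
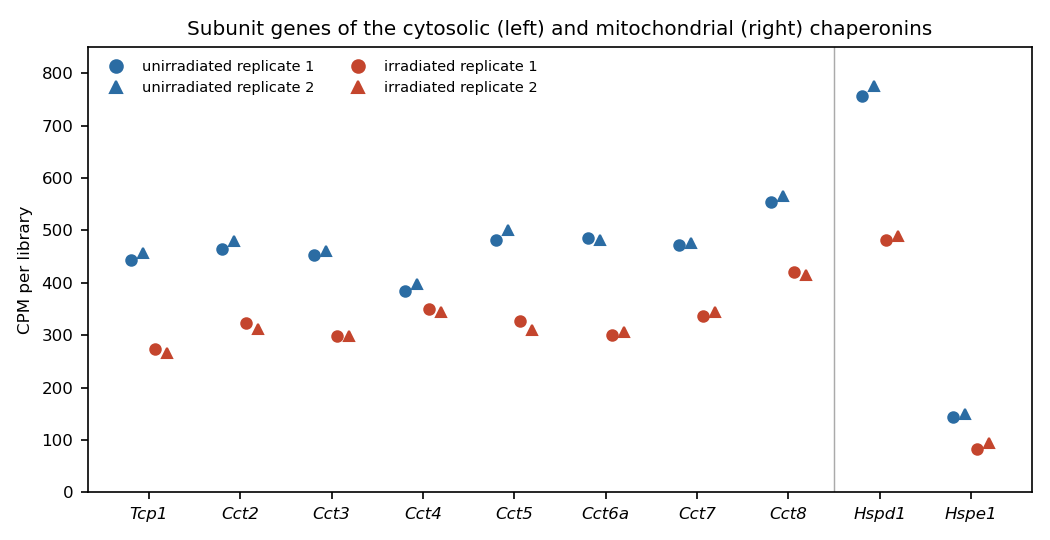
CPM of the CCT subunits and of the mitochondrial chaperonin genes in each library, 2 points per group. In each abundant gene both irradiated points lie below both unirradiated points, with the narrowest gap in Cct4, from 384 and 397 to 349.6 and 344 CPM.

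Both genes of the mitochondrial chaperonin fell, and by similar amounts. Their means lay above 100 CPM, a level at which 49.9% of all genes fell and 32.4% rose. Hspd1 (HSP60, chr1:55077835-55088243) had 756 and 776 CPM without and 481 and 489 CPM with irradiation, 1.58-fold lower (log2 fold change -0.66, SE 0.028, adjusted p = 2.23e-122). Hspe1 (HSP10, chr1:55088132-55091307) had 144 and 149 CPM against 83.3 and 95.2 CPM, 1.64-fold lower (-0.71, SE 0.048, adjusted p = 3.09e-48). These are the divergent neighbours whose shared promoter with its heat shock letters is printed above. Their ratio per length, Hspd1 over Hspe1, was 2.93 and 2.91 in the unirradiated and 3.22 and 2.87 in the irradiated libraries, so that the ratios of the groups overlapped. Exons of the pair overlap by 112 bases on opposite strands, and 31.0% of the 75-base words of Hspd1 also occur in another gene, mainly a pseudogene, so that reads may have been divided or dropped in counting.

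The HSP90 genes moved in different directions. Hsp90ab1, the constitutive cytosolic form and the most abundant chaperone message here, had 5362 and 5436 CPM without and 4484 and 4492 CPM with irradiation (log2 fold change -0.27, SE 0.017, adjusted p = 8.60e-56). Hsp90aa1, the stress-inducible cytosolic form, had 1150 and 1176 CPM against 1267 and 1238 CPM (0.11, SE 0.023, adjusted p = 1.10e-05). The groups did not overlap in either gene, but the rise of Hsp90aa1 was only 1.08-fold. Per length, Hsp90aa1 over Hsp90ab1 was 0.164 and 0.165 before and 0.216 and 0.210 after irradiation. Of the 75-base words of Hsp90aa1 42.8% occur in another gene, mainly a processed pseudogene.

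Hsp90b1, the HSP90 of the ER lumen also named GRP94, rose the most of the family. It had 686 and 713 CPM in the unirradiated and 897 and 886 CPM in the irradiated libraries, 1.27-fold higher (log2 fold change 0.35, SE 0.026, adjusted p = 1.13e-40). Its promoter is shown because it holds the ER stress element, CCAAT and CCACG with 9 free bases between them, searched on both strands. The 250 bases before the start (chr10:86705445-86705694, minus strand) carry it in capitals once in each orientation, as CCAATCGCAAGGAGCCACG and, in reverse, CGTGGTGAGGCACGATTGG.
Hsp90b1: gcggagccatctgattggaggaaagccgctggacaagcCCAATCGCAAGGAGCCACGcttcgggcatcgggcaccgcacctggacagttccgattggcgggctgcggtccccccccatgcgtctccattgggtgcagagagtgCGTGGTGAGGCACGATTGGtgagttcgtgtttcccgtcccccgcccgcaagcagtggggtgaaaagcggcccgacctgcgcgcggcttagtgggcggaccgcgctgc
This element occurred in 2 of the 62 members with a window (3.23%), Hsp90b1 and Dnajc3, and in 0.137% of all genes of the table. Dnajc3, an inhibitor of eIF2-alpha kinases in the ER, had 92.4 and 95.6 CPM without and 102 and 96.0 CPM with irradiation (0.072, adjusted p = 0.224).

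HSP70 genes split evenly: of 9 members 8 were tested, 4 rose and 4 fell, and the median log2 fold change was 0.072, a value set by the middle genes that ranged up to 0.55 when 1 library was left out. The 3 members with a mean above 100 CPM, Hspa8, Hspa9 and Hspa13, all fell, as did 49.9% of all genes above that level. Hspa8 (chr9:40800984-40810087), the constitutive cytosolic HSC70, had 3672 and 3785 CPM in the unirradiated and 2572 and 2593 CPM in the irradiated libraries, 1.44-fold lower (-0.53, SE 0.019, adjusted p = 1.28e-175). Hspa9, the mitochondrial HSP70 mortalin, had 771 and 788 CPM against 474 and 477 CPM, 1.64-fold lower (-0.71, SE 0.028, adjusted p = 2.81e-143). Hspa13, a microsomal HSP70, went from 118 and 121 CPM to 93.9 and 87.4 CPM (-0.40), and Hspa12b, a distant relative known from endothelium, from 29.8 and 35.5 CPM to 22.5 and 21.8 CPM (-0.56, adjusted p = 7.75e-09). In all 4 genes both irradiated libraries were below both unirradiated ones. For Hspa8, 33.0% of the 75-base words occur in other genes, among them many pseudogenes.

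The 4 HSP70 genes that rose had means over the 4 libraries between 2.71 CPM (Hspa1l) and 38.7 CPM (Hspa1b), a range that also held Hspa12b, which fell, at 27.4 CPM. Hspa1b, a classical heat-inducible HSP70, had 32.0 and 31.0 CPM without and 43.8 and 47.9 CPM with irradiation, 1.45-fold higher (log2 fold change 0.54, SE 0.078, adjusted p = 2.30e-11). Per length its level was 0.0134 and 0.0126 of that of Hspa8 before and 0.0261 and 0.0284 after irradiation. Hspa2, a member best known from the testis, had 18.2 and 18.6 CPM against 30.7 and 34.4 CPM (0.82, SE 0.098, adjusted p = 2.67e-16). Hspa12a, a distant relative, had 16.7 and 17.1 CPM against 31.3 and 30.4 CPM (0.87, SE 0.10, adjusted p = 3.27e-17). In these 3 genes the irradiated libraries stood above the unirradiated ones without overlap.

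Hspa1b lies beside 2 close relatives on chromosome 17, and the 3 cannot be fully separated by reads. Hspa1b spans chr17:34956436-34959238, Hspa1a chr17:34969190-34972156 and Hspa1l chr17:34972703-34979285. Of the 75-base words of Hspa1b 55.8% also occur in Hspa1a or another gene, and of those of Hspa1a 61.7%. Hspa1a had 4 and 1 counts in the unirradiated and 14 and 6 in the irradiated libraries and was too low to be tested. Hspa1l, known from spermatids, had 66 and 36 counts against 119 and 85 (0.99, SE 0.30, adjusted p = 0.00215). Its call was lost without the second unirradiated library (adjusted p = 0.141) or the first irradiated one (0.0709), and 71.9% of its exon bases overlap an annotated gene on the opposite strand.

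**Figure D4:**
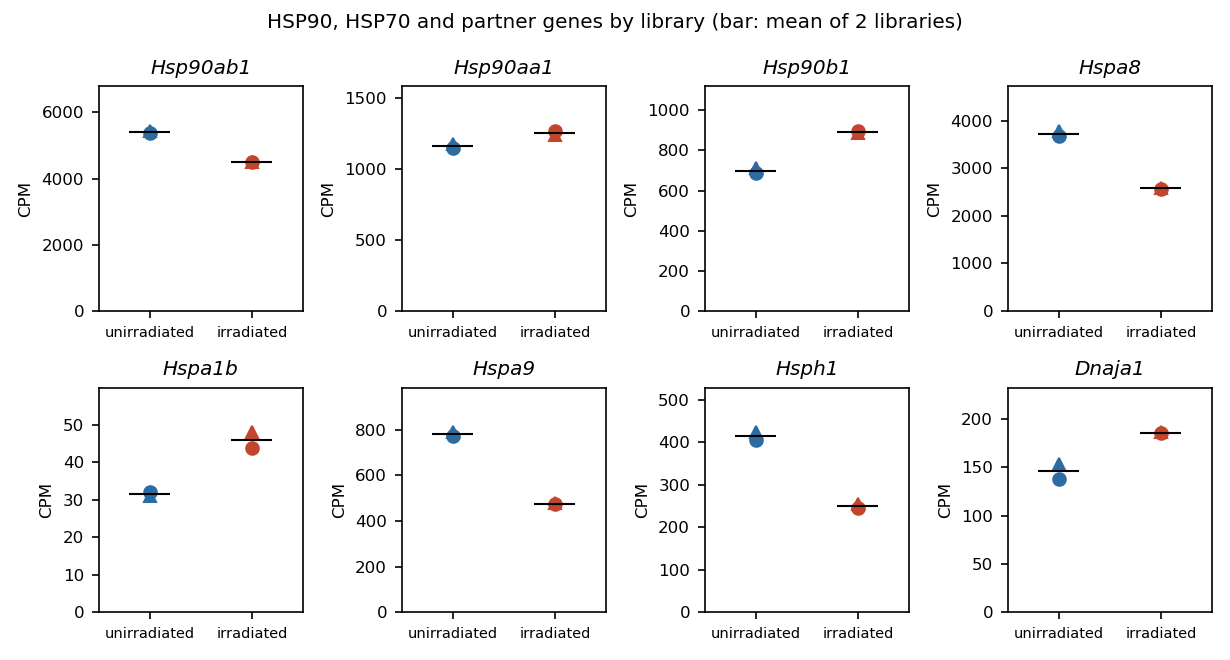
CPM of HSP90 and HSP70 genes, Hsph1 and Dnaja1 in each library, on axes that start at 0. Circles are replicate 1, triangles replicate 2 and bars the mean of 2 libraries. Hsp90ab1, Hspa8, Hspa9 and Hsph1 sit lower after irradiation, while Hsp90b1, Dnaja1 and Hspa1b, the last below 50 CPM, sit higher.

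Where 49.9% of all genes above 100 CPM fell, all 3 tested HSP110 genes passed the test as lower, with falls of different size. These large relatives of HSP70 act as its nucleotide exchange factors. Hsph1 (HSP105, chr5:149614287-149636376) had 406 and 423 CPM without and 245 and 256 CPM with irradiation, 1.66-fold lower (log2 fold change -0.73, SE 0.033, adjusted p = 1.18e-104). Its fall exceeded that of Hspa8 in proportion: per length Hsph1 was 0.0655 and 0.0662 of Hspa8 before and 0.0563 and 0.0583 after irradiation. Hspa4 had 500.0 and 518 CPM against 390.2 and 404 CPM (-0.36, adjusted p = 3.93e-31). Hspa4l, the third, had 553 and 579.8 CPM against 538 in both irradiated libraries (-0.073, adjusted p = 0.0190). That last call was lost with DESeq2 (adjusted p = 0.0613), with library totals as the scale (0.692), and without either irradiated library (0.0749 and 0.0621) or the second unirradiated one (0.225). Of the 2 partners, Hspbp1, which releases nucleotide from HSP70, fell from 30.0 and 27.8 CPM to 18.5 and 16.7 CPM (-0.71, adjusted p = 1.05e-11), and Hspbap1 had 18.9 and 19.9 CPM against 16.3 and 17.1 CPM (-0.22, adjusted p = 0.0806).

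Small heat shock proteins hold unfolded proteins without ATP. Of 8 members, 5 were tested, 1 rose, 2 fell and 2 did not pass. The other 3 had too few counts to be tested. Over all genes tested, 30.4% rose and 30.3% fell. Hspb8, which works with BAG3 in the clearance of aggregates and was the most abundant member, had 164 and 162 CPM without and 134 and 136 CPM with irradiation (log2 fold change -0.27, adjusted p = 1.17e-09). Hspb11, also known as the intraflagellar transport protein IFT25, had 30.2 and 28.7 CPM against 21 and 19.2 CPM (-0.55, adjusted p = 8.53e-08). Hspb6, known as HSP20 from muscle, had 30.7 and 31.4 CPM against 46.4 and 49.2 CPM, 1.54-fold higher (0.62, SE 0.078, adjusted p = 8.22e-15). The groups did not overlap in these 3 genes. Hspb1, the stress-inducible HSP25 of many epithelial cells, had 2, 4, 0 and 11 counts in the 4 libraries and was not tested. Cryab (alpha B-crystallin), a small heat shock protein that the choice by symbol left out and that was added here after its values were seen, was more abundant than Hspb8: it had 283 and 278 CPM without and 203 and 203 CPM with irradiation (-0.46, adjusted p = 1.57e-36). In a library a count of 0 allows up to 3 counts, or between 0.100 and 0.115 CPM here, by counting error alone.

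J-domain proteins start the ATP cycle of HSP70 and choose its substrates. Of the 41 members, 37 were tested, 6 rose, 15 fell and 16 did not pass, and the median log2 fold change was -0.036 (between -0.15 and -0.044 with 1 library left out, and 0.023 with library totals as the scale). Among all genes tested, 30.4% rose and 30.3% fell. In class A, which resembles bacterial DnaJ over its full length, 1 of 4 rose, 2 fell and 1 did not pass. Dnaja1 had 138 and 154 CPM without and 185 and 186 CPM with irradiation (0.35, SE 0.041, adjusted p = 3.46e-16). Dnaja2, the most abundant of the class per length, had 241 and 252 CPM against 193 and 186 CPM (-0.38, adjusted p = 2.41e-23). Both are cytosolic partners of HSC70, and they moved in opposite directions without overlap between the groups. Dnaja3, the mitochondrial member, had 82.7 and 91.9 CPM against 64.1 and 62.04 CPM (-0.47, adjusted p = 3.00e-16), and its exons overlap those of neighbouring genes.

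In class B 2 of 8 tested genes rose, 2 fell and 4 did not pass, against 30.4% higher and 30.3% lower over all genes. Dnajb1 (HSP40), the classical heat-inducible partner of HSP70 and the most abundant of its class per length, had 109.5 and 106 CPM without and 108 and 105 CPM with irradiation (log2 fold change -0.023, SE 0.050, adjusted p = 0.717). Its groups overlapped. Dnajb6, which suppresses polyglutamine aggregation and carries 3 heat shock units, had 111 in both unirradiated libraries and 141 and 133 CPM in the irradiated ones (0.31, SE 0.047, adjusted p = 2.95e-10). Dnajb4 had 124 in both against 149 and 139.9 CPM (0.22, adjusted p = 3.93e-06). The fallers were Dnajb14, a membrane protein of the ER that faces the cytosol, from 77.9 and 81.8 CPM to 51.8 and 48.3 CPM (-0.67, adjusted p = 2.56e-28), and Dnajb11, a cochaperone in the ER lumen, from 113 in both to 87.5 and 88.2 CPM (-0.36, adjusted p = 6.65e-12). Per length, Dnajb1 over Dnaja2 was 0.423 and 0.391 before and 0.517 and 0.523 after irradiation.

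Class C, which shares only the J domain, held both the gene that fell most and the gene that rose most among the tested members. Of 25 tested genes 3 rose, 11 fell and 11 did not pass, against 30.4% higher and 30.3% lower over all genes. Dnajc21, a factor in the maturation of the large ribosomal subunit (chr15:10446756-10470516), had 45.8 and 53.0 CPM without and 23.5 and 21.7 CPM with irradiation, 2.18-fold lower (log2 fold change -1.12, SE 0.083, adjusted p = 7.07e-41). Dnajc28, a little studied mitochondrial protein (chr16:91614254-91619026), had 72 and 94 counts against 291 and 262, or 2.62 and 3.22 CPM against 9.78 and 9.87 CPM, 3.35-fold higher (1.75, SE 0.20, adjusted p = 5.77e-17). In both genes the groups lay far apart relative to their spread. Dnajc17 had 11.5 and 9.18 CPM against 5.34 and 5.27 CPM (-0.96, adjusted p = 2.26e-07), and part of its exons overlap a neighbouring gene. Dnajc10, the ER reductase ERdj5, had 219.5 and 226 CPM against 272 and 269 CPM (0.28, adjusted p = 4.05e-14). Dnajc8, a splicing factor and the most abundant of the class per length, had 149.9 and 156 CPM against 139.8 and 134 CPM (-0.16, adjusted p = 5.72e-04).

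Other class C members, chosen for mention after their values were seen, include Dnajc2, a ribosome-bound cochaperone, which fell from 97.8 and 93.9 CPM to 64.6 and 68.0 CPM (-0.53, adjusted p = 1.85e-21). Dnajc15 and Dnajc19, partners of the mitochondrial import motor, fell from 17.4 and 15.6 CPM to 9.44 and 8.74 CPM (-0.86) and from 27.9 and 34.1 CPM to 17.2 and 21.1 CPM (-0.70). Dnajc5, the cysteine string protein of secretory vesicles, rose from 84.7 and 90.4 CPM to 104 CPM in both irradiated libraries (0.25, adjusted p = 4.26e-06). The calls of Dnajc30 (-0.75, adjusted p = 0.00172) and Dnajc9 (-0.17, adjusted p = 0.00233) did not hold without the second unirradiated library (0.0961 and 0.0811).

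Members were also grouped by the compartment in which their proteins work. The counts stand beside 30.3% lower and 30.4% higher over all genes tested. Of 10 tested mitochondrial members, 8 fell, 1 rose (Dnajc28) and 1 did not pass (Dnajc4), with a median log2 fold change of -0.68, and their summed level went from 2176 and 2233 TPM to 1445 and 1453 TPM. The ER list held Hsp90b1, Hspa13, Dnajb11, Dnajc1, Dnajc3, Dnajc10 and Dnajc25. Membrane proteins of the ER whose J-domain faces the cytosol, such as Dnajb14, which fell, and Dnajb12, which did not pass, were counted with the cytosol. Of the 7 genes of the ER list, 2 rose (Hsp90b1 and Dnajc10), 3 fell and 2 did not pass, with a median of -0.19 that lay between -0.32 and -0.067 with 1 library left out. Their summed level was 1029 and 1060 TPM without and 1271 and 1223 TPM with irradiation, and Hsp90b1 alone held 604 and 625 TPM of it before and 826 and 797 TPM after. The 51 tested members of the cytosol, nucleus or other places had 10 higher, 24 lower and 17 not passed, with a median of -0.15. Both irradiated libraries were below both unirradiated ones in the mitochondrial sum and above them in the ER sum. A difference between the compartments was not itself tested.

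**Figure D5:**
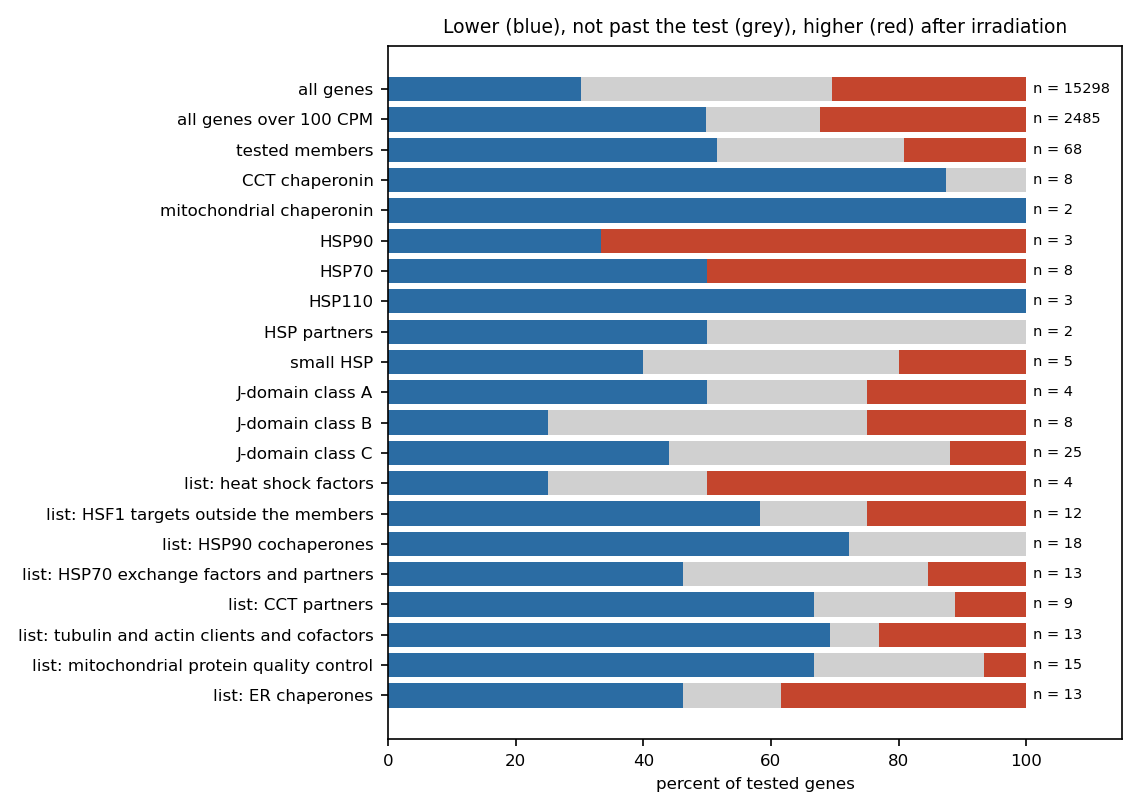
Percent of tested genes that were lower (blue), did not pass (grey) or were higher (red) after irradiation, over all genes, in each chaperone family and in each list of partner genes, with the number tested at the right. CCT (7 lower of 8) and the HSP90 cochaperones (13 lower of 18) show no red, while HSP70 shows 4 genes of each colour.

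Lists of genes that work with the chaperones were counted in the same fit, in which 30.3% of all genes fell and 30.4% rose. The message of HSF1 fell: Hsf1 had 74.5 and 72.7 CPM without and 57.1 and 61.8 CPM with irradiation (log2 fold change -0.31, edgeR adjusted p = 4.76e-07). The level and activity of the HSF1 protein were not measured. Hsf2 had 37.3 and 39.0 CPM against 36.2 and 32.0 CPM (-0.16, adjusted p = 0.0743). Hsf4, at 1.86 and 2.33 CPM, rose to 4.0 and 4.11 CPM (0.95, adjusted p = 0.00175). Hsf3 and Hsf5 were too low to be tested, with 0 or 1 counts in each unirradiated library and between 2 and 18 in the irradiated ones. Hsbp1, which binds and restrains HSF1, rose from 74.9 and 81.3 CPM to 91.4 and 88.1 CPM (0.20, adjusted p = 4.65e-04), a call lost without unirradiated replicate 1 (adjusted p = 0.0786). Among 12 HSF1 targets outside the 77 genes 3 rose, 7 fell and 2 did not pass, with a median of -0.17. Hmox1, which makes heme oxygenase and also answers to oxidative stress, was the largest riser, from 15.2 and 15.5 CPM to 30.0 and 29.7 CPM (0.96, adjusted p = 1.40e-19). The largest faller was Fkbp4, an immunophilin partner of HSP90, from 356 and 355 CPM to 188 CPM in both irradiated libraries (-0.92, adjusted p = 1.49e-146).

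Beside 30.3% lower and 30.4% higher over all genes tested, HSP90 cochaperones had no riser. Of the 18, 13 fell and 5 did not pass, with a median log2 fold change of -0.35. At an unadjusted edgeR p under 0.05 the count of higher genes was 0, and in DESeq2 it was 0 beside 11 lower. Ppid (cyclophilin 40) fell most, from 178 and 183 CPM to 86.6 and 90.3 CPM, 2.04-fold lower (-1.03, adjusted p = 6.94e-109). Of 13 exchange factors and partners of HSP70, 2 rose, 6 fell and 5 did not pass. St13 (HIP), which stabilises HSP70 with bound ADP, rose from 339 and 364 CPM to 529.8 and 525 CPM (0.59, adjusted p = 1.16e-79), while Stub1 (CHIP), the ubiquitin ligase of HSP70 and HSP90 clients, fell from 72.3 and 68.6 CPM to 38.6 and 46.6 CPM (-0.73, adjusted p = 1.10e-28). The groups did not overlap in these 3 genes. Of all genes tested, 38.7% lay lower and 39.7% higher without overlap. Stub1 stands in both lists, and Fkbp4 is also a cochaperone, so that the lists are not separate counts.

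Genes around CCT and its clients were lower in majority. Over all genes tested 30.3% fell and 30.4% rose, and above 100 CPM 49.9% fell and 32.4% rose. Of 9 prefoldin and phosducin-like partners, which hand over or regulate substrates, 6 fell, 1 rose and 2 did not pass. The prefoldin subunit Pfdn4 fell from 21 and 23.2 CPM to 13.9 and 11.7 CPM (-0.78, adjusted p = 9.30e-11), and Txndc9 rose from 76.8 and 79.5 CPM to 87.1 and 90.03 CPM (0.18, adjusted p = 0.00182), a call lost without unirradiated replicate 1 (0.0533) or irradiated replicate 2 (0.0537). Among 13 tubulin and actin genes and tubulin cofactors 9 fell, 3 rose and 1 did not pass. Actg1, cytoplasmic gamma-actin and a CCT client, had 1185 and 1139 CPM against 548 and 538 CPM (-1.10), and Tubb2a, a beta-tubulin, rose from 16.2 and 13.5 CPM to 27.2 and 26.4 CPM (0.86, adjusted p = 8.47e-15). Neither list was tested as a list.

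In the mitochondria, 10 of 15 other genes of protein quality control fell, 1 rose and 4 did not pass, with a median log2 fold change of -0.37. The protease Htra2 went from 46.4 and 42.6 CPM to 21.8 and 21.3 CPM (-1.05, adjusted p = 9.02e-33), and Hscb, a J-domain protein of iron-sulfur cluster assembly with another style of name, from 6.99 and 6.95 CPM to 12.9 and 11.9 CPM (0.83, adjusted p = 4.93e-07). ER chaperones outside the 77 genes were mixed, with 5 of 13 higher, 6 lower and 2 not passed. The ER HSP70 Hspa5 (BiP) fell from 806 and 838 CPM to 681 and 678 CPM (-0.27, adjusted p = 6.72e-25). Its cofactor Dnajb9 (ERdj4) rose from 15.1 and 13.9 CPM to 28.2 and 32.5 CPM, 2.09-fold higher (1.07, SE 0.10, adjusted p = 1.51e-23), and Creld2 fell (-0.66, adjusted p = 2.10e-22). Hsp90b1, Hspa5 and Dnajb9, all residents of the ER, thus differed in direction.

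Reads shared with other genes limit some of these values. Among the 55 tested members with under 10% of their 75-base words in another gene, 8 rose and 30 fell, with a median log2 fold change of -0.22. Among the 52 without a neighbour that overlaps their exons and holds over 10% as many counts, 10 rose and 26 fell (-0.17). The 9 members too low to be tested (Cct8l1, Hspa1a, Dnajb3, Dnajb7, Dnajc5b, Dnajc12, Hspb1, Hspb3 and Hspb9) had at most 14 counts in any library.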

How the data were processed

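Counts per gene were measured by RNA sequencing in 4 libraries, 2 unirradiated and 2 irradiated, of MC38 cells. The deposited values are raw counts per Ensembl gene, 1 column per library, per the file headers. HISAT2, HISAT, HTSeq, DESeq2 and the mm10 build are named in the submitters' processing notes without versions or roles. The sources used here do not give the annotation release, the strand setting or the handling of multiply matching reads, so reads of overlapping genes or near-identical copies may have been divided or dropped. The description of unirradiated replicate 2 carries the number of replicate 1, and its title was followed, which the column name matches.

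From these counts, edgeR 4.0.16 in R 4.3.3 (TMM, filterByExpr, robust glmQLFit, glmQLFTest) tested irradiation over 15298 genes, with Benjamini-Hochberg adjustment and a threshold of 0.05. The SE is the absolute log2 fold change over the square root of F. CPM use TMM-scaled totals, and TPM use plain counts and GENCODE M21 exon lengths. The total counts per library (26059171 to 29881492) limit precision, and floors of 3 counts cover counting error only. Share of words in other genes was counted over annotated transcripts.

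Named were the 2 largest risers and fallers of each family past the threshold with at least 5 CPM, its most abundant gene, all tested CCT, HSP90 and mitochondrial chaperonin genes, the extremes of each partner list, the Hsf genes, Hspa5 and Dnajb9; Cct6a, Hspa1b, Hspa1a, Hspa1l, Hspa13, Hspa4l, Hspbap1, Hspb1, Dnajc3 and those said to be so in the text were added after their values were seen. The members and lists were chosen with earlier results of these data known. Of the marker lists, 2 of 3 tested epithelial genes rose and 0 fell (0 also at an unadjusted edgeR p under 0.05 and in DESeq2). Of 5 tested mesenchymal genes 3 rose and 1 fell. Both tested endothelial genes rose, and the 2 others on that list were not tested. The single tested leukocyte and erythroid genes did not pass. The pipeline was tested on simulated counts for this comparison: 158 of 200 planted genes were recovered, and 10 unchanged genes were called among 14951 tested. The simulation gave all genes the same spread and changed few of them, whereas 60.7% of genes were called in the data. It therefore does not measure the share of false calls in the data. Alternatives were DESeq2 1.42.0, RLE factors, no filter, a replicate block, leaving out each library and, added after the data were seen, library totals as the scale and members free of overlap or shared words.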

Additional observations from a re-analysis of the deposited data

How the results depend on the processing

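No member that passed the test changed direction under any alternative run, nor did any other named gene that passed. Of the 68 tested members, the call held in 67 with DESeq2, 68 with RLE factors, 68 without the filter, 65 with library totals, and in 64 to 67 when 1 library was left out. Dnajc3 passed with library totals (adjusted p = 0.0200), Dnajc9 then missed (0.0508), Dnajc7 passed without unirradiated replicate 1 (0.00878) or irradiated replicate 2 (0.0121), Dnajc30 also missed without irradiated replicate 2 (0.0948), and Hsf2 passed without irradiated replicate 1 (0.0206). With the replicate block 13 members rose and 35 fell, as without it, against 4507 and 4519 of all genes. Same-numbered libraries did not deviate together (correlation -0.011 over genes), so the numbers were not taken to pair the samples, and the block changed no member's call. Over all genes DESeq2 called 4025 higher and 4025 lower.

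The median log2 fold change of all genes was 0.018 with RLE factors, 0.018 with DESeq2, 0.22 without the filter, 0.071 with library totals and 0.0060 to 0.035 with 1 library left out. With library totals the medians were -0.12 for the members, -0.46 for CCT, -0.41 for the HSP partners, -0.30 for HSP110, 0.17 for HSP90, 0.075 for class B, 0.023 for all J-domain proteins, -0.63 for the mitochondrial chaperonin, -0.13 for ER members, 0.079 for the heat shock factors, -0.11 for HSF1 targets, -0.29 for HSP90 cochaperones, -0.016 for HSP70 exchange factors, -0.23 for CCT partners, -0.24 for tubulin and actin genes, -0.31 for mitochondrial quality control and 0.074 for ER chaperones. Without the filter, which adds genes of few counts, they were 0.52 for HSP70, 0.11 for class B, -0.040 for the small heat shock proteins, 0.18 for the heat shock factors and -0.096 for HSP70 exchange factors. With 1 library left out they ranged over -0.28 to -0.16 for the members, -0.57 to -0.52 for CCT, -0.49 to -0.45 for the HSP partners, -0.40 to -0.34 for HSP110, 0.076 to 0.12 for HSP90, 0.072 to 0.55 for HSP70, -0.26 to -0.12 for class A, -0.0030 to 0.042 for class B, -0.15 to -0.044 for all J-domain proteins, -0.75 to -0.64 for the mitochondrial chaperonin, -0.22 to 0.0010 for the small heat shock proteins, -0.32 to -0.067 for ER members, -0.72 to -0.55 for mitochondrial members, -0.044 to 0.25 for the heat shock factors, -0.44 to -0.28 for HSP90 cochaperones, -0.14 to -0.099 for HSP70 exchange factors, -0.33 to -0.21 for CCT partners and -0.41 to -0.35 for mitochondrial quality control. The heat shock factors then had 1 to 3 higher and 1 to 2 lower genes, and the CCT partners 0 to 1 higher. Members with few shared words had 8 higher and a median of -0.22, from fewer genes, and the stricter run of 3 heat shock units left 4 members in place of 18. Genes of few counts, such as Cct6b, Hspb7 and Dnajc6, had standard errors of 0.53 to 0.84 and show no small change at this depth.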
